A study of Homo sapiens with 12 samples.

Results

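The proteasome genes of HepaRG cells are described here across 12 RNA sequencing libraries. They were chosen by symbol: protein-coding genes named PSMA, PSMB, PSMC, PSMD, PSME, PSMF or PSMG followed by a digit, which gave 49 of 58735 genes in the deposited table. HepaRG is a human hepatic cell line, labelled wild type, and each group had 3 libraries. In PA, cells received 400 µM of palmitate, a saturated fatty acid, in deuterium-labelled form for 4 h. In PA+OA, 200 µM of oleate, a monounsaturated fatty acid, was given with 400 µM palmitate for 4 h. In PA+BMS, cells were treated for 24 h with 50 µM BMS-309403, a compound that blocks the fatty acid carrier FABP4, together with 400 µM palmitate for 4 h. Control cells were untreated and sampled at 4 h. No vehicle group and no group with BMS-309403 alone is among these 12 libraries, so PA+BMS differed from PA in the compound and in the length of treatment, which cannot be told apart. The labels do not say that the 3 replicates were separate cultures, so p-values measure the spread between these libraries, which may be technical.

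The proteasome is the protease that degrades proteins tagged with ubiquitin. Its core particle is a barrel of PSMA subunits in the outer alpha rings and PSMB subunits in the inner beta rings, of which PSMB5, PSMB6 and PSMB7 carry the constitutive catalytic sites. Interferon-induced PSMB8, PSMB9 and PSMB10 take their places in the immunoproteasome, and PSMB11 does so in the thymus. The regulatory particle caps the core: PSMC1 to PSMC6 form a ring of ATPases that unfolds substrates, PSMD1, PSMD2 and PSMD4 complete its base, and the lid holds the deubiquitinase PSMD14. PSMD5, PSMD9 and PSMD10 are chaperones that assemble the base, and PSMG1 to PSMG4 are chaperones that assemble the core. PSME1 to PSME4 are alternative activators that open the core, and PSMF1 can inhibit it. In liver cells, as in most cells, the constitutive subunits are made at high levels under the transcription factor NFE2L1, which restores them when proteasome activity is short.

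By these roles the 49 genes comprised 8 of the alpha ring, 4 non-catalytic and 3 constitutive catalytic genes of the beta ring, 4 inducible or thymic catalytic genes, 6 ATPases, 3 other base subunits, 8 lid subunits, 3 base chaperones, 4 activators, 1 inhibitor, 4 core chaperones and PSMC3IP. PSMC3IP bears the prefix but is a protein of meiotic recombination, not a subunit. Values are FPKM, reads scaled by gene length and library size. The gene length is that of all annotated exons of a gene together, which can exceed the transcript made. Levels of different genes can therefore be compared only roughly. Tests were made on log2(FPKM + 1) with limma over all 11856 genes that reached 1 FPKM in at least 3 libraries. In that test 46 of the 49 entered. PSMA2, an alpha ring subunit, was left out at 0.528 to 1.18 FPKM. PSMA8, a testis form of an alpha subunit, had 1 read in all 12 libraries and the thymic PSMB11 had 3.

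The libraries held 16059128 to 19971190 reads assigned to genes. In PA+OA replicate 1 the deposited FPKM summed to 402688, above the 258747 to 355834 of the other 11, and PA+OA replicate 1 and PA+BMS replicate 3 lay at opposite ends of the first principal component of all genes tested, which took 54.4% of the variance. On that component genes were ordered by the GC content of their transcripts (Spearman rho 0.68 between loading and GC). Among the tested proteasome genes, 22 of 46 had their highest value in PA+OA replicate 1 and 22 had their lowest in PA+BMS replicate 3. The labelled cell type was checked against its markers: each of 8 hepatocyte genes was under 1 FPKM in every library, ALB had no read, and the 8 summed to at most 0.300 FPKM. Of the bile duct markers, KRT7 was at 139 to 917 FPKM while KRT19 and EPCAM did not pass 0.105 FPKM. The leukocyte gene PTPRC did not pass 0.012 FPKM. The hepatic label is thus not borne out by these hepatocyte markers. In bulk RNA, fewer cells of a type and less RNA per cell cannot be told apart.

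Levels within the core and the base were uneven. PSMA7 averaged 255 FPKM over the 12 libraries, ahead of the beta ring subunits PSMB3 at 206, PSMB4 at 181, PSMB5 at 159, PSMB7 at 145 and PSMB6 at 138 FPKM. PSMD2, a scaffold of the base, averaged 129.5 FPKM, the ATPase PSMC3 124 FPKM, and PSMD4, the base's ubiquitin receptor, 81.0 FPKM. Other core and base genes with no shared coding bases were much lower, such as PSMC6 at 7.34, PSMA5 at 18.7, PSMD1 at 19.3, PSMA3 at 19.9 and PSMC2 at 22.8 FPKM. The inducible catalytic genes were low: PSMB8 averaged 4.44, PSMB10 2.59 and PSMB9 1.17 FPKM. Lid levels spanned 4.19 FPKM for PSMD6 to 66.5 FPKM for PSMD3, although the lid holds these subunits in equal number. The annotated exons came to 9123 bases for PSMD6 and 4964 for PSMD3, and the part of gene length in these levels was not tested. Annotation overlap moved with some of the low values. In PSMA2, PSMA1, PSMA6, PSMD9 and PSMB10, 97.1%, 88.6%, 70.4%, 58.7% and 58.3% of the coding bases lay within another annotated gene, and the 3 alpha ring genes among them averaged 0.789 to 5.63 FPKM, while the 4 alpha ring genes that passed the filter and had no shared bases averaged 18.7 to 255 FPKM. The part of overlapping annotation in these levels was not tested, and their values are uncertain because the strand setting and the handling of shared reads were not given in the sources used here. A further 32 proteasome pseudogenes are in the table, and 2 of them passed 1 FPKM in a library, PSMA6P1 at up to 3.92 and PSMC1P1 at up to 3.44 FPKM. PSMA6 itself was at 0.760 to 1.14 FPKM and PSMC1 at 9.10 to 14.7 FPKM. The part of pseudogene reads in the levels of PSMA6 and PSMC1 was not tested, so these values are uncertain in this respect too.

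**Figure D1:**
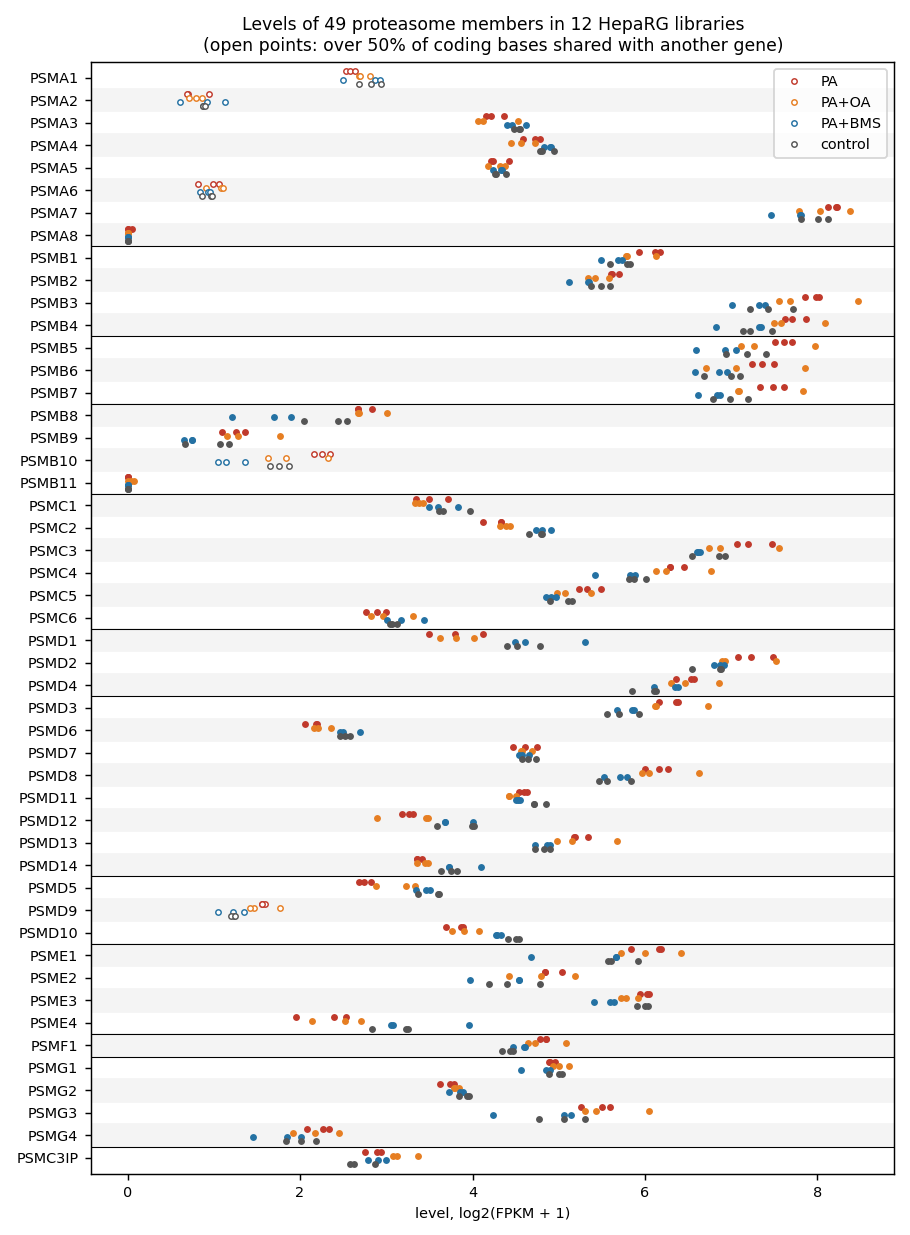
Level of each of the 49 proteasome genes on a log2(FPKM + 1) axis, 1 point per library, coloured by group and arranged by role; open points mark genes with over 50% of their coding bases in another annotated gene. PSMA7, PSMB3 and PSMB4 lie at the high end, while PSMB8, PSMB9, PSMB10 and the genes with open points lie at the low end in all 4 groups.

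Summed over the 49 genes, proteasome transcripts came to 2710, 2654 and 2435 FPKM in PA, 3227, 2257 and 2078 FPKM in PA+OA, 2012, 1988 and 1711 FPKM in PA+BMS and 2287, 1874 and 2110 FPKM in control. Every PA library was above every PA+BMS and control library, and the PA+OA libraries spanned both. As a share of all FPKM in a library, however, the 49 genes took 0.760% to 0.765% in PA, 0.695% to 0.801% in PA+OA, 0.652% to 0.768% in PA+BMS and 0.699% to 0.778% in control, and these ranges overlap. The libraries' FPKM totals moved with the summed level, at 320299 to 355834 in PA, 299034 to 402688 in PA+OA, 258747 to 264111 in PA+BMS and 267959 to 293995 in control. Their part in the results was not tested beyond the fits with equal totals given beside the comparisons.

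Palmitate against control asked how the genes stood after 4 h of the saturated fatty acid. Genes of the base and lid moved in both directions in PA relative to control, and 1 core gene passed the test. Of 46 genes tested, 5 rose and 8 fell, or 10.9% and 17.4%, beside 12.8% and 14.8% of all genes tested (27.6% in either direction). The median log2 change was 0.21, against 0.03 over all genes. Over genes that reached 5 FPKM in at least 3 libraries, which not all of the 46 did, the median was 0.16. Values were higher in every PA library than in every control library for 21 genes and lower for 13, while 31.3% and 29.3% of all genes did so. With all libraries scaled to the same FPKM total, 1 rose and 16 fell, and the median over all genes was then -0.18 and that of the 46 genes -0.03. Here and below, shares of all genes called were found only for the main fit, to all 12 libraries as deposited. Counts from other fits thus do not tell proteasome genes from genes at large.

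The genes that fell in PA were the base chaperones PSMD5 and PSMD10, the base scaffold PSMD1, the lid subunits PSMD6, PSMD12 and PSMD14, the ATPase PSMC2 and the activator PSME4. PSMD5 (ENSG00000095261, chromosome 9, 120815496 to 120842984; coordinates are those of GRCh38, whose GENCODE 29 annotation the table's gene identifiers match) had 6.06, 5.40 and 5.71 FPKM in PA, 6.37, 8.40 and 9.11 FPKM in PA+OA, 9.19, 10.4 and 10.02 FPKM in PA+BMS and 9.35, 11.2 and 11.1 FPKM in control. All 3 PA values were below all 3 control values, and the 3 PA+OA values lay between those of PA and control. PSMD5 fell by 0.78 on the log2 scale in PA (SE 0.13, adjusted p = 0.00267 by limma with Benjamini-Hochberg adjustment, as for all adjusted p-values here). PSMD10 (ENSG00000101843, chromosome X, 108084207 to 108091618), which as gankyrin also binds the retinoblastoma protein, had 13.6, 11.97 and 13.8 FPKM in PA, 12.6, 15.8 and 13.9 FPKM in PA+OA, 18.5, 19.1 and 18.4 FPKM in PA+BMS and 20.3, 21.7 and 22.2 FPKM in control. It stood lower in each PA and PA+OA library than in any PA+BMS or control library, and fell in PA (log2 change -0.66, SE 0.11, adjusted p = 0.00246). PSMD1 (ENSG00000173692, chromosome 2, 231056864 to 231172827) had 16.4, 10.3 and 12.9 FPKM in PA, 11.3, 13.02 and 15.2 FPKM in PA+OA, 21.5, 23.4 and 38.5 FPKM in PA+BMS and 20.03, 21.9 and 26.5 FPKM in control. Its 3 PA values lay below those of control, with PA+BMS replicate 3 the highest of all 12 libraries, and it fell in PA (log2 change -0.76, SE 0.22, adjusted p = 0.0265).

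The other falls in PA were of similar or smaller size. PSME4, a large activator of the core also known as PA200 that acts on acetylated histones, had 4.80, 2.87 and 4.27 FPKM in PA, 3.39, 4.73 and 5.55 FPKM in PA+OA, 7.28, 7.44 and 14.6 FPKM in PA+BMS and 6.14, 8.35 and 8.53 FPKM in control. PA and control did not overlap, PA+BMS replicate 3 was the highest, and the fall in PA was the largest of any of the 46 genes (log2 change -0.81, SE 0.25, adjusted p = 0.0333). Without the trend of all genes in GC content and length, PSME4 was -0.33 (adjusted p = 0.0946) and PSMD1 -0.39 (adjusted p = 0.106), neither called, and PSMD5 was -0.52. With 1 library left out, PSME4 was lost in 5 and PSMD1 in 4 of the 12 fits (adjusted p up to 0.129 for PSME4 and 0.11 for PSMD1). PSMC2, an ATPase, had 19.04, 16.4 and 19.2 FPKM in PA, 19.02, 20.6 and 19.97 FPKM in PA+OA, 25.6, 26.9 and 28.997 FPKM in PA+BMS and 24.2, 26.7 and 26.9 FPKM in control. It was lower in every PA library than in every control or PA+BMS library (log2 change -0.49, SE 0.10, adjusted p = 0.00813). PSMD14, which removes ubiquitin from substrates as they enter, had 9.68, 9.28 and 9.21 FPKM in PA, 9.26, 10.2 and 9.88 FPKM in PA+OA, 12.2, 12.2 and 16.1 FPKM in PA+BMS and 11.4, 12.5 and 13.1 FPKM in control. The PA values lay below all control and PA+BMS values (log2 change -0.36, SE 0.11, adjusted p = 0.0372), but the fall did not hold once that trend was removed, when it was 0.07 (adjusted p = 0.556). PSMD12 and PSMD6 fell by 0.61 and 0.37 on the log2 scale (adjusted p = 0.024 and 0.022), PSMD6 being -0.0035 (adjusted p = 0.985) and PSMD12 -0.22 (adjusted p = 0.159) without that trend.

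The genes that rose in PA were the lid subunits PSMD3 and PSMD8, the ubiquitin receptor PSMD4, the inhibitor PSMF1 and the inducible catalytic PSMB10. PSMD3 had 82.3, 81.1 and 70.7 FPKM in PA, 105, 68.8 and 68.2 FPKM in PA+OA, 57.6, 56.5 and 49.9 FPKM in PA+BMS and 59.8, 46.1 and 51.03 FPKM in control. PSMD8, a lid subunit, had 75.8, 70.6 and 62.9 FPKM in PA, 98.1, 65.1 and 61.3 FPKM in PA+OA, 54.5, 51.4 and 44.96 FPKM in PA+BMS and 56.1, 43.4 and 45.98 FPKM in control. In both genes every PA value was above every control value, and PA+OA replicate 1 was the highest library (PSMD3: log2 change 0.57, adjusted p = 0.0293; PSMD8: 0.52, adjusted p = 0.0449). PSMD4 had 94.2, 91.5 and 81.4 FPKM in PA, 115, 87.3 and 77.97 FPKM in PA+OA, 82.6, 80.5 and 67.8 FPKM in PA+BMS and 68.8, 56.8 and 67.9 FPKM in control, with all PA, PA+OA and, apart from replicate 3, PA+BMS values above control, and rose in PA (log2 change 0.46, SE 0.15, adjusted p = 0.0437). PSMF1 had 27.8, 27.8 and 26.5 FPKM in PA, 33.01, 25.4 and 23.9 FPKM in PA+OA, 23.3, 23.2 and 21.2 FPKM in PA+BMS and 20.7, 19.2 and 21.1 FPKM in control. Every PA and PA+OA value of PSMF1 was above every control value (log2 change 0.41, SE 0.12, adjusted p = 0.028). PSMB10, whose values are given below with its relatives, rose by 0.50 on the log2 scale in PA (adjusted p = 0.0413). With equal library totals PSMD3 alone of these 5 was still called, and once the GC and length trend was removed none was.

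None of the constitutive catalytic genes passed the test in PA against control. PSMB5, the chymotrypsin-like site and the target of bortezomib, had 194, 208 and 181 FPKM in PA, 251, 153 and 138 FPKM in PA+OA, 132, 121 and 95.2 FPKM in PA+BMS and 168, 122 and 144 FPKM in control. PSMB6, the caspase-like site, had 179, 163 and 149.8 FPKM in PA, 230.1, 132 and 103 FPKM in PA+OA, 122, 115 and 94.4 FPKM in PA+BMS and 136, 102 and 127 FPKM in control. PSMB7, the trypsin-like site, had 195, 178 and 159.7 FPKM in PA, 226, 134 and 135 FPKM in PA+OA, 116, 113 and 96.7 FPKM in PA+BMS and 145, 109.9 and 126 FPKM in control. In all 3 genes every PA value exceeded every control value, and PA+OA replicate 1 was the highest, while PA+BMS replicate 3 was the lowest library. The PA against control log2 changes were 0.44, 0.43 and 0.48, with adjusted p of 0.132, 0.172 and 0.0793. Across the 16 core genes 1 rose, PSMB10, and 0 fell. Of the 6 ATPases 0 rose and 1 fell, of 14 PSMD genes 3 rose and 6 fell, and of 4 PSME genes 0 rose and 1 fell. With equal library totals these counts were 0 and 3 in the core, 0 and 3 among ATPases, 1 and 8 among PSMD genes and 0 and 1 among PSME genes. No share of all genes called stands beside the counts with equal totals, under which the median over all genes was -0.18.

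The number of calls in PA against control changed with the libraries in the fit, including libraries of the other groups, which enter the shared estimate of the spread. No share of all genes called stands beside the counts of these fits. PSMD5, PSMD10 and PSMC2 were called in each of the 12 fits that left out 1 library and once the GC and length trend was removed. The rises numbered 0 without PA replicate 1, PA replicate 2, control replicate 2 or control replicate 3, 1 without PA replicate 3, 3 without PA+BMS replicate 1 or PA+OA replicate 2, 2 without PA+BMS replicate 2 and 17 without PA+OA replicate 1, and without control replicate 1 the call of PSMD4 was also lost. The falls numbered 3 without PA replicate 2, control replicate 2 or control replicate 3, 4 without PA replicate 1 and 5 without PA replicate 3. With PA+BMS replicate 3 and PA+OA replicate 1 left out together, 21 rose and 11 fell, the 5 and the 8 among them. With the spread taken from only the PA and control libraries, 20 rose and 9 fell.

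**Figure D2:**
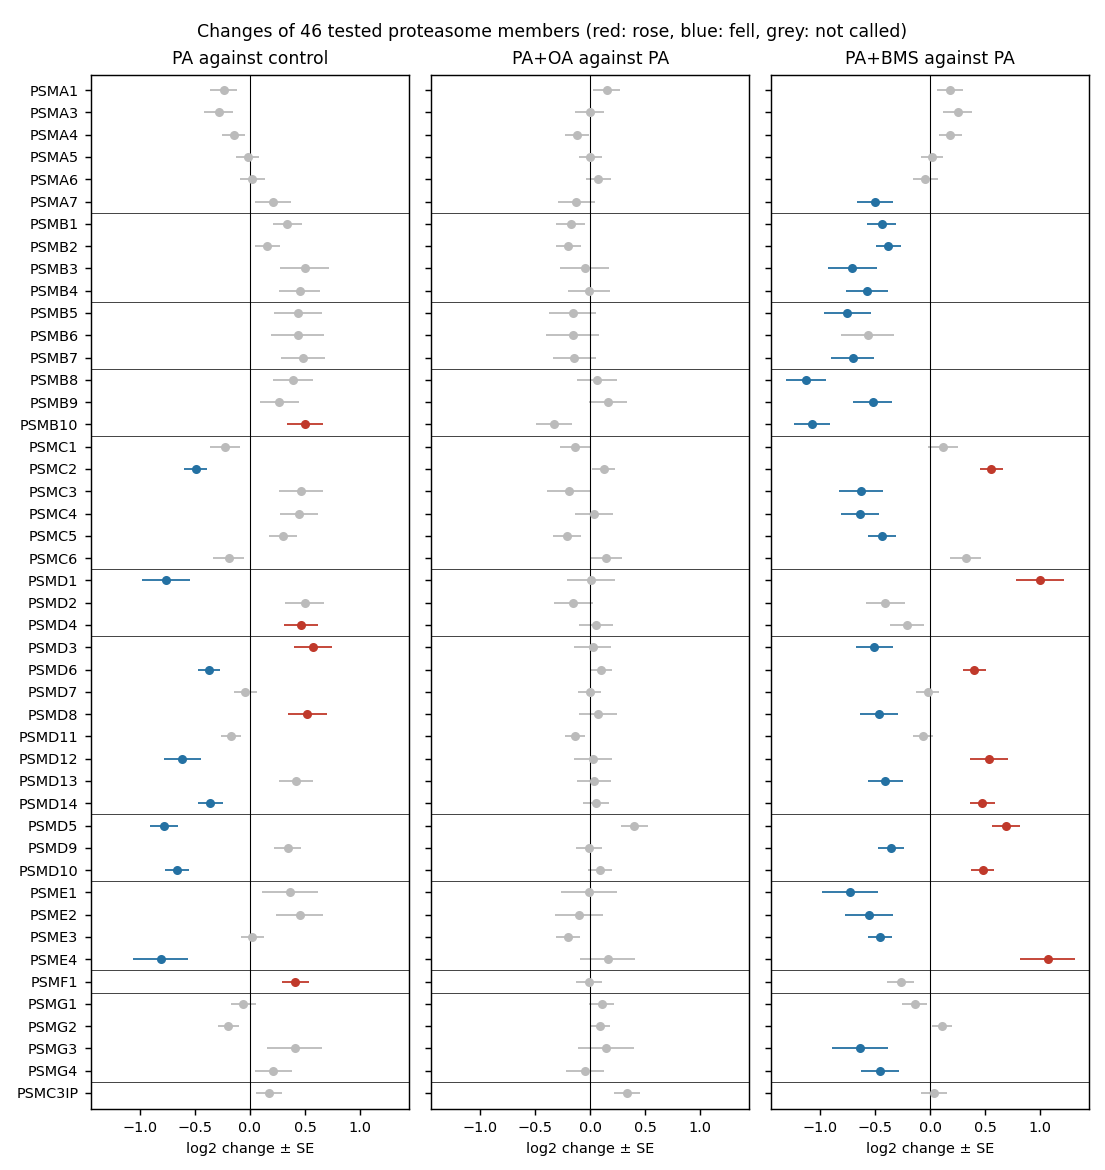
Log2 change with its standard error for the 46 tested proteasome genes, arranged by role, for PA set against control, PA+OA set against PA and PA+BMS set against PA; red points rose, blue points fell and grey points were not called at an adjusted p of 0.05. In PA against control 5 are red and 8 blue, with oleate added all are grey, and with BMS-309403 added 8 are red and 22 blue.

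Oleate given with palmitate did not change any proteasome gene past the threshold. In PA+OA against PA, limma called 0 of 46 genes up and 0 down, beside 4.01% and 3.91% of all genes tested (7.91% in either direction), and 2 genes had an unadjusted p under 0.05. The test on recovered reads and the fit with equal library totals also gave 0 and 0. The median log2 change was 0.00, and over all genes it was also 0.00. Values were higher in every PA+OA library than in every PA library for 3 genes and lower for 3, while 13.3% and 11.6% of all genes did so. The smallest adjusted p was that of PSMD5 (log2 change 0.40, SE 0.13, adjusted p = 0.074), whose PA+OA values, listed above, were all higher than in PA. PSMC3IP, the recombination protein, had 5.77, 6.40 and 6.65 FPKM in PA, 7.46, 9.35 and 7.75 FPKM in PA+OA, 6.51, 6.96 and 5.90 FPKM in PA+BMS and 6.31, 4.99 and 5.15 FPKM in control, with every PA+OA value above every PA value (log2 change 0.33, SE 0.12, adjusted p = 0.111). PSMB10 had a log2 change of -0.33 (adjusted p = 0.289). For PSMB5 the 95% interval of the PA+OA minus PA difference ran from -0.62 to 0.31 on the log2 scale. Without PA+OA replicate 1, 2 rose and 1 fell, without both that library and PA+BMS replicate 3, 2 rose and 8 fell, and once the GC and length trend was removed 1 rose and 1 fell.

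The FABP4 inhibitor given with palmitate gave more calls than the other 5 comparisons in the fit to all 12 libraries, though not under every alternative. Set against PA, 22 of 46 genes fell and 8 rose in PA+BMS, or 47.8% and 17.4%, beside 29.4% and 25.2% of all genes tested (54.5% in either direction). The median log2 change was -0.37, against -0.04 over all genes. Over genes that reached 5 FPKM in at least 3 libraries the median was -0.26. Values were lower in every PA+BMS library than in every PA library for 25 genes and higher for 11, while 36.7% and 32.8% of all genes did so. This comparison uses the same PA libraries as PA against control, so a PA value that is high or low by chance enters both with opposite sign. Of 16 core genes 10 fell and 0 rose, of 6 ATPases 3 fell and 1 rose, of 14 PSMD genes 4 fell and 6 rose, of 4 PSME genes 3 fell and 1 rose and of 4 PSMG genes 2 fell and 0 rose. With library totals set equal, these counts were 3 and 4 in the core, 0 and 3 among ATPases, 0 and 8 among PSMD genes, 0 and 1 among PSME genes and 0 and 1 among PSMG genes. In all, 3 of the 46 genes then fell and 17 rose, the median over all genes was 0.24 and that of the 46 was -0.02. With the GC and length trend removed 11 fell and 4 rose, of which 8 falls were in the core. No share of all genes called stands beside the counts with equal totals or with the trend removed.

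The largest falls in PA+BMS against PA were those of the inducible catalytic genes PSMB8 and PSMB10. PSMB8, the inducible counterpart of PSMB5 (ENSG00000204264, chromosome 6, 32840717 to 32844703), had 5.37, 6.16 and 5.35 FPKM in PA, 7.04, 5.43 and 5.35 FPKM in PA+OA, 2.24, 2.70 and 1.31 FPKM in PA+BMS and 4.83, 3.11 and 4.41 FPKM in control. Every PA+BMS value was below every value of the other 3 groups. On the log2(FPKM + 1) scale the PSMB8 fall against PA was the largest of the 46 genes (log2 change -1.13, SE 0.18, adjusted p = 0.00264). That scale shrinks the change of a lower gene such as PSMB10 more. PSMB10, the counterpart of PSMB7 (ENSG00000205220, chromosome 16, 67934502 to 67937087), had 3.49, 4.10 and 3.76 FPKM in PA, 4.02, 2.09 and 2.56 FPKM in PA+OA, 1.57, 1.21 and 1.06 FPKM in PA+BMS and 2.66, 2.14 and 2.36 FPKM in control. Here too PA+BMS was below all other libraries (log2 change -1.07, SE 0.16, adjusted p = 0.0022). PSMB9, the counterpart of PSMB6 (ENSG00000240065, chromosome 6, 32844136 to 32859585), had 1.13, 1.57 and 1.39 FPKM in PA, 2.40, 1.43 and 1.22 FPKM in PA+OA, 0.679, 0.674 and 0.574 FPKM in PA+BMS and 1.104, 1.25 and 0.586 FPKM in control. PA+BMS was below PA and PA+OA but overlapped control replicate 3 (log2 change -0.52, SE 0.18, adjusted p = 0.0267). The calls of PSMB8 and PSMB10 held in each of the 12 fits that left out 1 library, with the GC and length trend removed (-0.85 and -0.46) and with equal library totals, and that of PSMB9 was lost in both of the last and without PA replicate 2, PA replicate 3 or PA+BMS replicate 3 (adjusted p up to 0.0899). PSMB10 shares coding bases as given above, and 14.02% of the coding bases of PSMB8 lie within its antisense neighbour PSMB8-AS1, so PSMB8 reads cannot be told from those of its neighbour without strand. PSMB10 shares its bases with a gene on the same strand, AC040162.1, from which strand would not separate it.

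Against its constitutive counterpart, PSMB8 stood at 1.38% to 2.23% of the PSMB5 level in PA+BMS, against 2.77% to 2.95% in PA. The ratio was 2.81% to 3.88% in PA+OA and 2.56% to 3.05% in control, so PA+BMS was below all other libraries. PSMB10 stood at 1.07% to 1.36% of PSMB7 in PA+BMS and at 1.79% to 2.36% in PA, with 1.55% to 1.89% in PA+OA and 1.83% to 1.94% in control. PSMB9 stood at 0.555% to 0.608% of PSMB6 in PA+BMS, against 0.632% to 0.964% in PA, 1.05% to 1.18% in PA+OA and 0.463% to 1.23% in control, so PA+BMS overlapped control. These ratios are descriptions, without a test, and their size depends on the gene lengths used. Among 6 other interferon-induced genes of antigen presentation and signalling, 2 fell and 0 rose in PA+BMS against PA, beside 29.4% and 25.2% of all genes tested. HLA-B (-0.76, adjusted p = 0.0136) and the peptide transporter TAP1 (-0.45, adjusted p = 0.00896) fell. HLA-B has near copies in the genome, so its reads are uncertain. With the GC and length trend removed neither was called.

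Of the constitutive catalytic genes, PSMB5 and PSMB7 fell in PA+BMS against PA (log2 change -0.75, SE 0.21, adjusted p = 0.0145 for PSMB5; log2 change -0.70, adjusted p = 0.0132 for PSMB7), and PSMB6 did not pass (-0.57, adjusted p = 0.0625). All PA+BMS values of the 3, given above, were below all PA values and overlapped control. The 4 non-catalytic beta genes fell as well, PSMB3 by 0.70, PSMB4 by 0.57, PSMB1 by 0.44 and PSMB2 by 0.38 on the log2 scale (adjusted p 0.0165 to 0.0248). In the alpha ring PSMA7 fell (-0.50, adjusted p = 0.0252) and the other 5 tested were not called, with log2 changes of -0.05 to 0.25. Of the core chaperones PSMG3 (-0.64, adjusted p = 0.0493) and PSMG4 (-0.45, adjusted p = 0.0401) fell, the call of PSMG4 being lost in 6 of the 12 fits that left out 1 library (adjusted p up to 0.162) and with the trend removed (0.107). PSMB7 held in every fit that left out 1 library. PSMB5 was not called without PA replicate 2 or PA+BMS replicate 3 (adjusted p up to 0.0582), PSMB2 without PA replicate 1 or PA+BMS replicate 3 (up to 0.0619) and PSMA7 without PA replicate 1, PA replicate 2 or PA+BMS replicate 3 (up to 0.0907). With equal totals PSMB7 alone of these genes was called as lower.

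**Figure D3:**
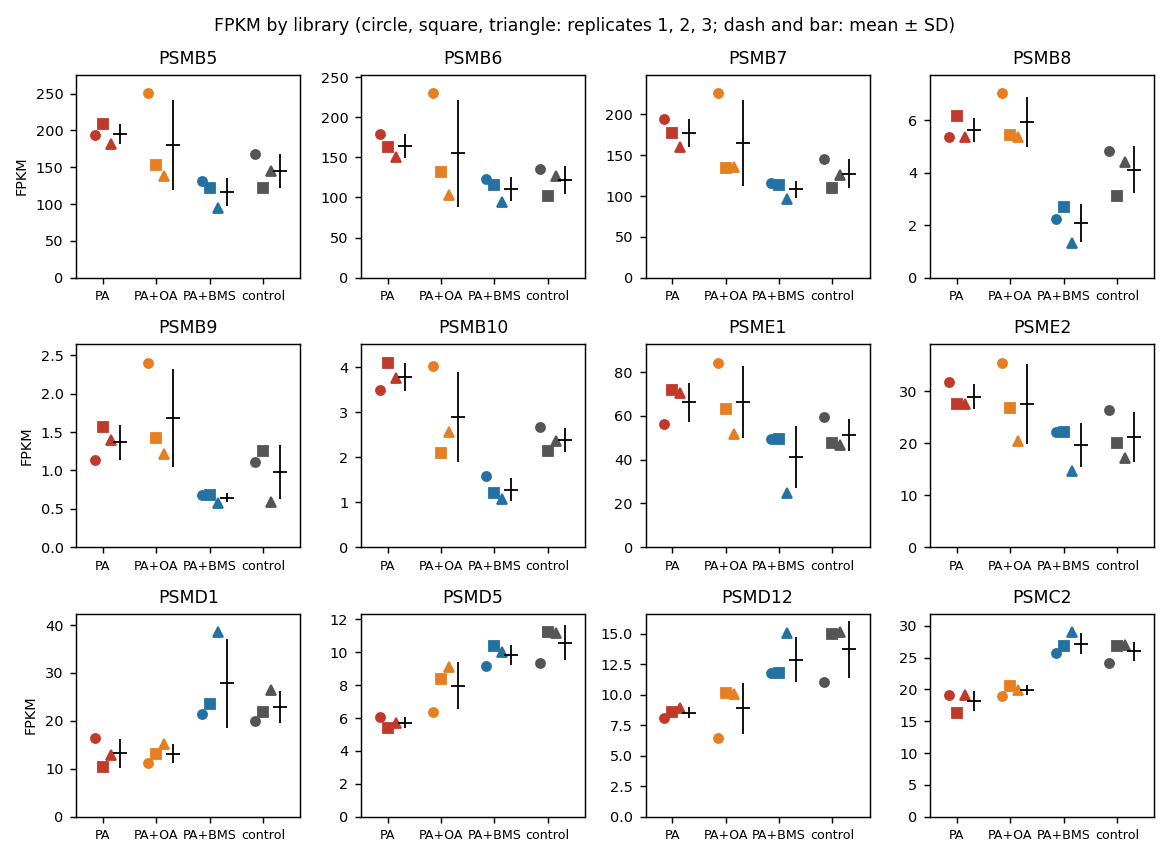
FPKM in each library, by group, with the group mean and SD as bars, for PSMB5 to PSMB10, PSME1, PSME2, PSMD1, PSMD5, PSMD12 and PSMC2. The 3 PA+BMS points of PSMB8 and PSMB10 lie below all other groups, and PSMD1, PSMD5, PSMD12 and PSMC2 are lower in PA than in PA+BMS and control.

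The activators split. PSME1 and PSME2, which form the interferon-induced 11S cap, and PSME3, a nuclear 11S activator, fell in PA+BMS, and PSME4 rose. PSME1 had 56.1, 71.8 and 70.4 FPKM in PA, 84.4, 63.2 and 51.9 FPKM in PA+OA, 49.6, 49.5 and 24.7 FPKM in PA+BMS and 59.6, 47.7 and 46.5 FPKM in control. PSME2 had 31.8, 27.7 and 27.5 FPKM in PA, 35.6, 26.8 and 20.4 FPKM in PA+OA, 22.2, 22.2 and 14.7 FPKM in PA+BMS and 26.4, 20.03 and 17.2 FPKM in control. In both, PA+BMS replicate 3 was the lowest library and PA+OA replicate 1 the highest, and every PA+BMS value was below every PA value (PSME1: log2 change -0.73, SE 0.25, adjusted p = 0.0309; PSME2: -0.56, adjusted p = 0.0455). PSME3 had 65.2, 64.2 and 60.4 FPKM in PA, 59.7, 53.7 and 51.9 FPKM in PA+OA, 47.4, 48.8 and 41.6 FPKM in PA+BMS and 63.1, 59.2 and 64.5 FPKM in control. PA+BMS was below all other libraries and PA and control overlapped (log2 change -0.46, SE 0.11, adjusted p = 0.00768). The fall of PSME3 held with each library left out and with the trend removed (-0.49), but with equal library totals it was -0.08 and not called. The PSME4 values given above were higher in PA+BMS than in PA without overlap (log2 change 1.07, SE 0.25, adjusted p = 0.00757), and the call held in all of these settings, at 0.44 once the trend was removed. Without PA+BMS replicate 3 the adjusted p of PSME1 and PSME2 passed 0.05, as it did without PA replicate 2 or PA replicate 3, and for PSME2 also without PA replicate 1, PA+OA replicate 2 or control replicate 2 (up to 0.123 for PSME1 and 0.186 for PSME2).

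Of the regulatory particle, 5 subunit genes rose in PA+BMS against PA, and so did the base chaperones PSMD5 and PSMD10. PSMD1 rose by 0.997, PSMD5 by 0.69, PSMC2 by 0.56, PSMD12 by 0.53, PSMD10 by 0.48, PSMD14 by 0.47 and PSMD6 by 0.40 on the log2 scale (adjusted p 0.00379 to 0.0222). In PA against control, with the same PA libraries, their log2 changes were -0.76, -0.78, -0.49, -0.61, -0.66, -0.36 and -0.37. PSMD12, a scaffold of the lid, had 8.05, 8.61 and 8.95 FPKM in PA, 6.44, 10.2 and 10.02 FPKM in PA+OA, 11.8, 11.8 and 15.04 FPKM in PA+BMS and 11.04, 14.96 and 15.1 FPKM in control, with PA+BMS and control overlapping and both above PA. The ATPases PSMC4, PSMC3 and PSMC5 fell by 0.64, 0.62 and 0.44, the lid subunits PSMD3, PSMD8 and PSMD13 by 0.51, 0.46 and 0.41, and the chaperone PSMD9 by 0.36 (adjusted p 0.0121 to 0.0441). PSMD4 had a log2 change of -0.21 (adjusted p = 0.255) and PSMF1 of -0.27 (adjusted p = 0.0747), neither called. PSMD1, PSMD5, PSMC2 and PSMD14 were called with each library left out. Once the GC and length trend was removed PSMD1 was 0.50, PSMD5 0.34 and PSMC2 0.23, still called, while PSMD10, PSMD12 and PSMD6 were not called and PSMD14 turned to -0.11 (adjusted p = 0.359).

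Promoter stretches of genes that rose and of genes that fell in PA+BMS are shown because NFE2L1 and its relative NFE2L2 bind the antioxidant response element, whose core TGACNNNGC was searched on both strands. A promoter window here is the 300 bases from 250 before to 50 after a start in RefSeq, and 43 of the 49 genes have at least one, with 53 windows in all. The core was in at least 1 window of 15 of the 43 genes (34.9%) and of 16.1% of all 27305 genes. The 15 hold genes that rose, such as PSMD1, PSMD5, PSMD12 and PSME4, and genes that fell, such as PSMC4, PSMD3, PSME1 and PSME2. A match describes letters and not a bound site. The ETS core CCGGAAGT was in 10 of the 43 genes (23.3%, all genes 4.95%), the CCAAT box in 21 (48.8%, all genes 39.7%), the TATA box TATAAA in 5 (11.6%, all genes 13.99%) and GAANNTTC of heat shock factors in 1 (2.33%, all genes 8.21%), each on both strands. In the stretches below, from RefSeq on GRCh38.p14 and written 5′ to 3′ on the gene's strand, the antioxidant response element core is in capitals. They lie at chr9:120843008-120843096 (minus strand) for PSMD5, chr17:67366694-67366782 (minus) for PSMD12 and chr2:53970994-53971067 (minus) for PSME4, which rose. For genes that fell they lie at chr14:24136068-24136156 (plus) for PSME1, chr14:24146737-24146825 (minus) for PSME2 and chr17:39980730-39980806 (plus) for PSMD3.
PSMD5: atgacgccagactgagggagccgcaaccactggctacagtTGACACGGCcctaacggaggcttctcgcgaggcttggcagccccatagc
PSMD12: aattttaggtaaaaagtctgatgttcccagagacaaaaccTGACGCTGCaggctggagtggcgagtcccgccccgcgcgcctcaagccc
PSME4: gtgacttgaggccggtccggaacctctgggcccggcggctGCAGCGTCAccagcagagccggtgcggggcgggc
PSME1: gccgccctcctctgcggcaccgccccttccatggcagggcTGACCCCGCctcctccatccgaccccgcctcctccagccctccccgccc
PSME2: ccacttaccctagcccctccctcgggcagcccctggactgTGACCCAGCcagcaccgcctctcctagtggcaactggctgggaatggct
PSMD3: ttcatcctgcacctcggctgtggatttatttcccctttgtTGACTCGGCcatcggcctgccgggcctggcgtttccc

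How many proteasome genes were called as lower in PA+BMS against PA changed with the libraries in the fit, including those of other groups, which enter the shared estimate of the spread. The shares of all genes called are given for the fit to all 12 libraries only. The counts here thus do not tell proteasome genes from genes at large. The falls numbered 6 without PA+BMS replicate 3, 7 without PA replicate 2 and 9 without PA replicate 1, while the rises stayed between 7 and 10 in the 12 fits. With PA+BMS replicate 3 and PA+OA replicate 1 left out together, 22 fell and 9 rose, and 19 of these falls were also called in the main fit. With the spread taken from only the PA+BMS and PA libraries, 24 fell and 8 rose. Some markers of other cell types moved in this comparison as well. The bile duct markers summed to 139.9 to 185 FPKM in PA+BMS and 571 to 669 FPKM in PA, and KRT7, which makes up nearly all of that sum, fell (-1.88, adjusted p = 0.000631). The leukocyte markers summed to 0.539 to 0.607 FPKM in PA+BMS and 1.63 to 2.13 FPKM in PA, the mesenchymal markers to 12.3 to 13.3 FPKM in PA+BMS and 16.8 to 17.6 FPKM in PA, and the endothelial markers to 0.343 to 0.459 FPKM in PA+BMS and 1.06 to 1.35 FPKM in PA. CSF1R made up nearly all of the leukocyte sum, CDH5 most of the endothelial sum and COL1A1 most of the mesenchymal sum. In PA+OA the endothelial markers summed to 0.287 to 0.454 FPKM. CDH5 fell against PA there too (-0.71, adjusted p = 0.00397), beside -0.66 in PA+BMS (adjusted p = 0.00379). The bile duct, leukocyte and mesenchymal sums in PA+OA were 520 to 917, 1.77 to 1.91 and 14.6 to 17.1 FPKM. With the GC and length trend removed COL1A1 was 0.03 in PA+BMS against PA and not called, while KRT7 (-1.44), CSF1R (-0.54) and CDH5 (-0.47) were. PTPRC, CD68, LST1, PECAM1 and VWF did not pass 0.147 FPKM in any library. The part of these cells or genes in the proteasome changes was not tested.

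Set against control instead, the PA+BMS libraries differed in few proteasome genes. In PA+BMS against control 0 of 46 rose and 3 fell, beside 4.77% and 6.25% of all genes tested, and values were higher without overlap for 1 gene and lower for 7, beside 16.7% and 19.2%. The 3 were PSMB8 (log2 change -0.74, SE 0.18, adjusted p = 0.0221), PSMB10 (-0.57, adjusted p = 0.0421) and PSME3 (-0.43, adjusted p = 0.0226). All 3 stayed called with equal library totals and once the GC and length trend was removed. Leaving out PA+BMS replicate 3, control replicate 1 or control replicate 3 left 0 of them and leaving out PA+BMS replicate 1 or control replicate 2 left 1, and PSMB10 was also lost without PA+BMS replicate 2 or any PA library (adjusted p up to 0.138). PSMD1, PSMD5 and PSMC2 had log2 changes of 0.24, -0.09 and 0.06 (adjusted p = 0.517, 0.688 and 0.728), not called.

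In PA+OA against control, 8 of 46 rose and 6 fell, beside 17.5% and 18.8% of all genes tested (36.3% in either direction), with values higher without overlap for 11 and lower for 12, beside 23.3% and 26.3%. PSMD3 (0.60), PSMD8 (0.59), PSMD4 (0.51), PSMC3IP (0.50), PSMC4 (0.47), PSMD13 (0.45), PSMF1 (0.40) and PSMD9 (0.33) rose, and PSMD1 (-0.75), PSMD12 (-0.59), PSMD10 (-0.57), PSMD5 (-0.38), PSMC2 (-0.37) and PSMD11 (-0.31) fell, in log2 change. None was a core subunit. PSMD10 (adjusted p = 0.00187) and PSMC3IP (adjusted p = 0.0069) were called in all 12 fits that left out 1 library. The rises numbered 1 without control replicate 2, 2 without control replicate 3, 3 without PA+OA replicate 1 and 5 without control replicate 1, any PA library, PA+BMS replicate 1 or PA+BMS replicate 2, and the falls 1 without control replicate 3, 2 without control replicate 2 and 10 without PA+BMS replicate 3. Without both extreme libraries 6 rose and 10 fell, and with equal library totals 3 rose and 15 fell.

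PA+BMS against PA+OA sets 2 treatments side by side, with oleate in one and the FABP4 inhibitor in the other. Of 46 genes 14 fell and 8 rose, beside 26.4% and 23.1% of all genes tested (49.6% in either direction), and values were lower without overlap for 21 and higher for 10, beside 31.4% and 28.1%. PSMB8 fell most (log2 change -1.19, SE 0.18, adjusted p = 0.00108), then PSMG3 (-0.78, adjusted p = 0.0253) and PSMB10 (-0.75, adjusted p = 0.00576), and PSMD1 (0.99, adjusted p = 0.00595), PSME4 (0.91, adjusted p = 0.0133) and PSMD12 (0.51, adjusted p = 0.0297) rose most. This order is that of the log2(FPKM + 1) scale, which shrinks the changes of low genes. Mean PSMB9 was 1.68 FPKM in PA+OA and 0.642 FPKM in PA+BMS, and mean PSMG3 48.5 and 28.2 FPKM. Both extreme libraries enter here. The falls numbered 5 without PA+OA replicate 1 and 4 without PA+BMS replicate 3, the rises 4 without PA+BMS replicate 3, and without both 3 fell and 5 rose, when PSMB8 was -0.88 (adjusted p = 0.00419) and PSMG3, PSME4 and PSMD12 were not called. With the GC and length trend removed PSMG3 was -0.21, PSMB10 -0.12, PSME4 0.28 and PSMD12 0.09, none of them called, while PSMB8 (-0.90) and PSMD1 (0.60) were. With equal library totals 4 fell and 16 rose.

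The direction of a proteasome gene moved with the GC content of its transcript. Across the 46 genes, the Spearman correlation of log2 change with GC was 0.80 for PA against control, -0.29 for PA+OA set against PA and -0.80 for PA+BMS set against PA, and over 11848 genes tested it was 0.66, -0.20 and -0.72. These are descriptions across genes measured in the same libraries, and genes are not independent replicates. In PA against control the genes that rose had a median GC of 55.4% (51.9% to 62.05%) and those that fell 42.8% (39.5% to 44.8%), without overlap. The median was 52.8% for the genes that fell in PA+BMS against PA and 42.8% for those that rose. By role, GC was highest in the inducible catalytic genes, median 55.7%, and lowest in the alpha ring, median 41.5%. With a smooth trend in GC and length removed from all genes the correlation over the 46 was 0.23, 0.01 and -0.19. In that fit PSMD5, PSMD10 and PSMC2 were among the 4 genes that fell in PA against control. With BMS-309403 added, PSMB7, PSMB8, PSMB10 and PSME3 were among the 11 that fell, and the 4 that rose were PSME4, PSMD1, PSMD5 and PSMC2. Whether GC stands for a step of library making or for the cells' response was not tested.

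**Figure D4:**
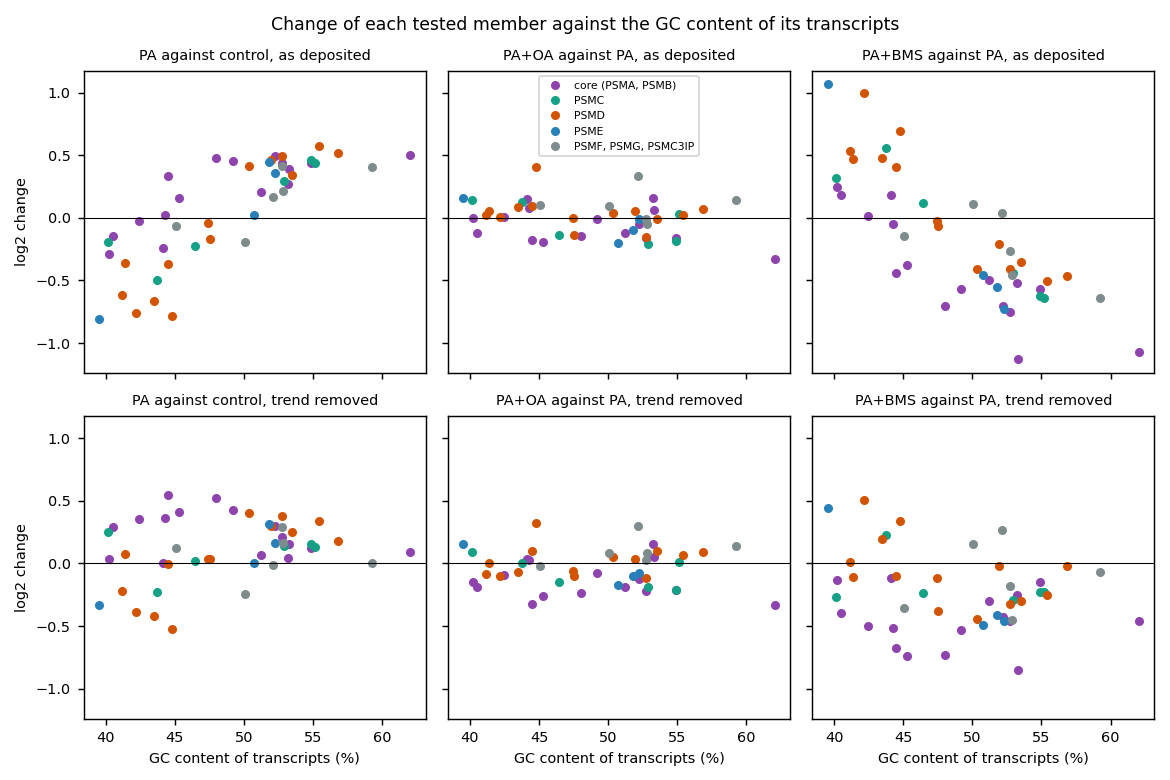
Log2 change of each of the 46 genes against transcript GC content in percent, for PA set against control, PA+OA set against PA and PA+BMS set against PA, as deposited in the upper row and with the GC and length trend of all genes removed in the lower row; colours give core, ATPase, PSMD, PSME and other genes. As deposited the points climb with GC in PA against control (rho 0.80) and descend in PA+BMS against PA (rho -0.80), and in the lower row they are nearly level (0.23 and -0.19).

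Other genes of the ubiquitin and proteasome pathway were taken from a list of 28, all of them tested. In PA against control 7 of 28 rose and 4 fell, beside 12.8% and 14.8% of all genes tested, and 2 rose and 0 fell once the GC and length trend was removed. AKIRIN2, which brings proteasomes into the nucleus, had 32.03, 35.8 and 33.5 FPKM in PA, 32.8, 36.95 and 36.4 FPKM in PA+OA, 30.7, 33.4 and 30.8 FPKM in PA+BMS and 23.4, 18.7 and 22.4 FPKM in control. Every treated library was above every control library, and it rose in PA (log2 change 0.63, SE 0.11, adjusted p = 0.0039). NFE2L1, the activator of proteasome genes, had 61.7, 56.1 and 53.8 FPKM in PA, 62.05, 59.3 and 56.2 FPKM in PA+OA, 45.9, 46.9 and 54.7 FPKM in PA+BMS and 40.1, 39.6 and 42.2 FPKM in control and rose in PA (log2 change 0.48, SE 0.11, adjusted p = 0.011), though without control replicate 2 its adjusted p was 0.0538. With the trend removed NFE2L1 was 0.25 (adjusted p = 0.0887) and with equal library totals 0.21, not called in either, and with equal totals AKIRIN2 was 0.36 and not called. Its relative NFE2L2 fell (-0.68, adjusted p = 0.0347), as did the shuttle factor RAD23B (-0.61, adjusted p = 0.0267), and both calls were lost without PA replicate 1, PA replicate 2, control replicate 2 or control replicate 3, that of NFE2L2 also without control replicate 1 and that of RAD23B without PA replicate 3 (adjusted p up to 0.125). With the trend removed NFE2L2 was -0.38 and RAD23B -0.32, neither called. UBB, which encodes a chain of ubiquitin units, rose (0.67, adjusted p = 0.0313), a call lost without any 1 of the PA libraries, control replicate 2 or control replicate 3 (up to 0.119). POMP, which matures the core, had a log2 change of 0.04 (adjusted p = 0.864) and the base's ubiquitin receptor ADRM1 0.62 (adjusted p = 0.051), neither called.

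In PA+OA against PA 1 of the 28 rose and 0 fell, beside 4.01% and 3.91% of all genes tested. The gene that rose was MIDN, which takes substrates to the proteasome without ubiquitin (0.40, adjusted p = 0.0309). Its call was lost in 7 of the 12 fits that left out 1 library (up to 0.128). Of the 28, 8 fell and 9 rose in PA+BMS against PA, beside 29.4% and 25.2% of all genes tested, and with the trend removed 4 fell and 2 rose. ADRM1 fell (-0.76, adjusted p = 0.0143), UBB fell (-0.66, adjusted p = 0.0185) and NFE2L2 rose (1.002, adjusted p = 0.00556), as did the proteasome adaptor ECPAS (0.84, adjusted p = 0.014). ADRM1, UBB and ECPAS were not called without PA replicate 2 or PA+BMS replicate 3 (adjusted p up to 0.0747), nor with the trend removed (ADRM1 -0.15, UBB -0.42 and ECPAS 0.34), when NFE2L2 was 0.58 and still called. In PA+BMS against control the zinc finger gene ZFAND5 (0.63) and AKIRIN2 (0.54) rose and 0 fell, beside 4.77% and 6.25% of all genes tested. The call of ZFAND5 was lost in 9 of the 12 fits (up to 0.125). Ubiquitin genes share nearly identical repeats, so the reads given to UBB are uncertain.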

How the data were processed

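Poly(A) RNA of HepaRG cells was sequenced as read pairs of 150 bases on a NovaSeq, with 3 libraries in each of PA, PA+OA, PA+BMS and control, per the labels' protocols. Per the submitters' processing notes the tools were CASAVA, featureCounts 1.5.0-p3 and HISAT2 2.0.5, with no role stated. The deposited values are FPKM per gene. How the authors derived FPKM from reads, their build and any strand setting were not given in the sources used here, but identifiers, symbols and coordinates of all 58735 genes equalled GENCODE 29 on GRCh38. Each FPKM times gene length was a whole multiple of a library-wide step (100% of values, tolerance 0.001), which gave 16059128 to 19971190 reads per library, and the library size behind the FPKM was 0.827 to 1.14 times that total for reasons no source gives. Replicates differed by more than sampling noise (chi-square per gene 3.46 to 67.6), so each counted as a sample.

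The deposited FPKM were put on a log2(FPKM + 1) scale and tested with limma 3.58.1 in R 4.3.3, by eBayes with a trend over all 12 libraries with a coefficient per group and 8 residual degrees of freedom. Genes entered where 3 or more libraries reached 1 FPKM, p-values were two-sided and Benjamini-Hochberg adjustment at 0.05 ran over all genes within each of 6 comparisons. A fold change on this scale understates that of low genes. "Without overlap" means that every library of a group lay beyond every library of the other. Figures and summaries used Python 3.11.15 with pandas 2.3.3, scipy 1.17.1 and matplotlib 3.10.9.

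The alternatives were a pseudocount of 0.1, no filter, a 5 FPKM filter, scaling by the median of ratios, equal library FPKM totals, only the 2 groups compared, replicate number as a block, removal of a spline trend (5 degrees of freedom each) in GC and length, limma's voom on the recovered reads with median-of-ratios library sizes, and leaving out libraries. The trend fit leaves out 8 tested genes with no GC value, none of them a proteasome gene. The fit was tested on simulated reads with an assumed dispersion of 0.01 and 200 changed genes in 11508 to 11545 tested genes. There the 6 comparisons found 95% to 99% of the 2-fold changes and 64% to 74% of the 1.5-fold changes. Of the calls made, 2.96% to 5.81% were false. The simulated reads held no GC trend and no outlying library, so in the real libraries fewer changes may be found and more calls may be false.

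The members, roles, pathway list, marker lists and motifs were chosen with earlier results of these data known. Results for some listed genes are not reported here. Named in full are PSMB5 to PSMB10, PSME1 to PSME4, PSMF1, PSMD4 and PSMD14, the 3 largest called rises and falls of each comparison and the smallest p of each role. Other members were named to account for every call, after their values were seen. Promoter windows of 43 of the 49 genes were found in the RefSeq table, and PSMA7, PSMB1, PSMB6, PSMB7, PSMD4 and PSMG3 had none there.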

Additional observations from a re-analysis of the deposited data

How the results depend on the processing

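Changed counts of called proteasome genes are given first, then named genes whose log2 change turned sign. These counts stand without the share of all genes called in the same fit, so they do not tell proteasome genes from genes at large. The cause of these changes was not tested. With no filter on low genes, 0 rose and 4 fell in PA against control, 8 fell in PA+BMS against PA, 3 rose and 3 fell in PA+OA against control, 1 fell in PA+BMS against control and 4 fell in PA+BMS against PA+OA. With library totals set equal, 1 rose and 16 fell in PA against control, 17 rose and 3 fell in PA+BMS against PA, 3 rose and 15 fell in PA+OA against control, 1 rose in PA+BMS against control and 16 rose and 4 fell in PA+BMS against PA+OA. The log2 change turned sign for PSME3 (-0.25), PSMC3IP (-0.068) and POMP (-0.24) in PA against control and PSME1 (0.026) and PSMF1 (0.029) in PA+OA against PA. So did the log2 change for PSMF1 (0.10), PSMD4 (0.17), NFE2L1 (0.16) and POMP (0.089) in PA+BMS against PA and PSMB10 (-0.0070) in PA+OA against control. So did the log2 change for PSME3 (0.076), PSMF1 (0.069), PSMD4 (0.075) and NFE2L1 (0.070) in PA+BMS against PA+OA. With the spread taken from only the 2 groups compared, 20 rose in PA against control, 1 rose and 3 fell in PA+OA against control and 1 rose and 3 fell in PA+BMS against PA+OA. With the GC and length trend removed, 1 rose and 4 fell in PA against control, 1 rose and 1 fell in PA+OA against PA, 4 rose and 11 fell in PA+BMS against PA and 3 rose and 9 fell in PA+BMS against PA+OA. The log2 change turned sign for PSMD14 (0.074), PSMA3 (0.035) and PSMC3IP (-0.015) in PA against control and PSMF1 (0.024) and PSMD14 (-3.5e-05) in PA+OA against PA. So did the log2 change for PSMD14 (-0.11) and NFE2L1 (0.030) in PA+BMS against PA and PSMB5 (-0.0067), PSMB6 (-0.093), PSMB10 (-0.25), PSMD14 (0.074) and PSMA4 (0.10) in PA+OA against control. So did the log2 change for PSMD14 (-0.031) and ADRM1 (0.073) in PA+BMS against control and PSMB6 (0.072), PSMD14 (-0.11), PSMA4 (-0.21) and POMP (-0.11) in PA+BMS against PA+OA. With median-of-ratios scaling, the log2 change turned sign for PSME3 (-0.0022) in PA against control and PSME1 (0.017) and PSMF1 (0.020) in PA+OA against PA. With voom on recovered reads, the log2 change turned sign for PSME3 (-0.0023) in PA against control and PSME1 (0.015) and PSMF1 (0.020) in PA+OA against PA. All these turned values had an adjusted p above 0.05. With replicate number as a block, the counts were 15 rose in PA against control, 1 rose in PA+OA against PA and 10 fell in PA+OA against control. The deviations of same-numbered libraries from their group means correlated at -0.28 to 0.56, with 9 of 18 pairs over 0.1. Those of differently numbered libraries of different groups correlated at -0.54 to 0.40, with 13 of 36 pairs over 0.1. The numbers were not taken to pair the libraries because the labels do not say that they do, and a pairing is not excluded. With 1 library left out, or PA+BMS replicate 3 and PA+OA replicate 1 together, the lowest and highest counts were 0 to 21 rose in PA against control, 3 to 11 fell in PA against control, 0 to 2 rose in PA+OA against PA and 0 to 8 fell in PA+OA against PA. Likewise they were 6 to 25 fell in PA+BMS against PA, 1 to 11 rose in PA+OA against control and 1 to 10 fell in PA+OA against control. In the rest they were 0 to 4 fell in PA+BMS against control, 4 to 8 rose in PA+BMS against PA+OA and 3 to 20 fell in PA+BMS against PA+OA. Log2 changes that crossed 0 in these fits ranged in PA against control over PSME3 -0.013 to 0.055 and POMP -0.051 to 0.16. Log2 changes that crossed 0 in these fits ranged in PA+OA against PA over PSMB5 -0.42 to 0.010, PSMB6 -0.48 to 0.091, PSMB8 -0.051 to 0.12, PSMB9 -0.023 to 0.29, PSME1 -0.20 to 0.15, PSME2 -0.30 to 0.091, PSME4 -0.011 to 0.32, PSMF1 -0.14 to 0.080, PSMD4 -0.11 to 0.17, ADRM1 -0.16 to 0.32 and UBB -0.11 to 0.25. Log2 changes that crossed 0 in these fits ranged in PA+BMS against PA over PSMC3IP -0.015 to 0.091. Log2 changes that crossed 0 in these fits ranged in PA+OA against control over PSMB6 -0.049 to 0.53 and PSMB10 -0.028 to 0.32. Log2 changes that crossed 0 in these fits ranged in PA+BMS against control over PSME2 -0.24 to 0.082, PSME4 -0.042 to 0.41, PSMD14 -0.011 to 0.17 and UBB -0.090 to 0.19. Log2 changes that crossed 0 in these fits ranged in PA+BMS against PA+OA over PSMB6 -0.66 to 0.024 and POMP -0.0073 to 0.28. The pseudocount of 0.1 and the filter at 5 FPKM kept every count within 1.5 times. Over the named genes, 1303 values kept their direction and side of the threshold in the other settings, 115 were weaker, 42 stronger and 38 reversed. Depth limits PSMB8, PSMB9, PSMD9, PSMB10 and PSMA6, which rest on 760 to 3103 reads over 12 libraries, and 3 libraries a group limit every test. Intervals cover these libraries only.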
